A study of Drosophila melanogaster with 9 samples.

Results

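The ovaries of fly line Pcif1M6stop were compared with those of the control line Pcif1BG02557 across every gene that the deposited table tests. The comparison takes 6 of the series' 9 libraries, 3 from each line, chosen by their labelled genotype. Of 17199 genes listed, 10662 had an adjusted p for this comparison.

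Pcif1 encodes a nuclear protein that attaches to RNA polymerase II through its phosphorylated tail. In mammals its relative methylates the first adenosine of capped messenger RNAs, whereas the fly protein is known to lack that activity. In the fly ovary, germ cells and a sheet of somatic follicle cells build the egg together: nurse cells supply RNA, and follicle cells secrete yolk protein and eggshell. Muscle sheaths surround the egg chambers, and oviduct, spermatheca, fat body, gut and tubules lie close by in the abdomen.

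The M6stop allele came from Cas9 editing of Pcif1 in w1118 flies, in the stretch that encodes the nuclear localization signal, and its frameshift ends in an early stop codon. It was then crossed for up to 10 generations to BG02557, a line with a P{GT1} element in the first intron of Pcif1. BG02557 flies also served as the controls, so the control line itself carries an insertion in the gene. Segments of the w1118 genome that stayed linked to the edited allele cannot be told apart from the allele in this design. A second edited line, F9ΔNLS, lacks the signal in frame (829 amino acids remain) and shares these controls. Its listed values are given beside those of M6stop for some of the genes and regions described. Where none is given, nothing is said about whether F9ΔNLS shared the change. Total RNA was prepared from 3 pairs of ovaries per line and depleted of ribosomal RNA. The labels call the 3 libraries of a line biological replicates, but do not say whether flies were pooled, nor how old they were.

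The levels below are mean normalized counts over all libraries, and the changes are log2 changes of M6stop over BG02557, both from the authors' deposited table. The table's values for single libraries carry codes that match no sample label, so no value per library, spread or depth per library is given. The words rose and fell are kept for genes whose DESeq2 adjusted p, as the authors list it, was under 0.05. Listed changes appear to be shrunk toward 0. A small listed value beside a passing adjusted p therefore does not give the size of a change, and no listed value carries an interval. RNA was measured in whole ovaries, where fewer cells of a type and less RNA per cell cannot be told apart. Reads of overlapping genes on opposite strands are uncertain too, since the strand setting is not given in the sources used here.

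In M6stop ovaries 589 genes changed, which is 5.52% of those tested. Of these, 371 rose (3.48%) and 218 fell (2.04%). The genes that rose had a median log2 change of 0.79, with quartiles of 0.31 and 1.62, and those that fell a median of -0.49, with quartiles of -0.91 and -0.25. The median over all tested genes was -0.00070 on the same log2 scale, so the comparison as a whole is centred near 0. Calls were most frequent among genes of low to moderate level. With the tested genes split into 5 equal parts by mean, those from 32.8 to 326 normalized counts had 111 rises and 73 falls, or 8.63%. Below that range 2.67% were called, and in the highest part, where means start at 2029, 97 rose and 31 fell. The median size of a called change was 1.22 from 32.8 to 326 counts and 0.29 in the highest part, on the log2 scale.

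**Figure D1:**
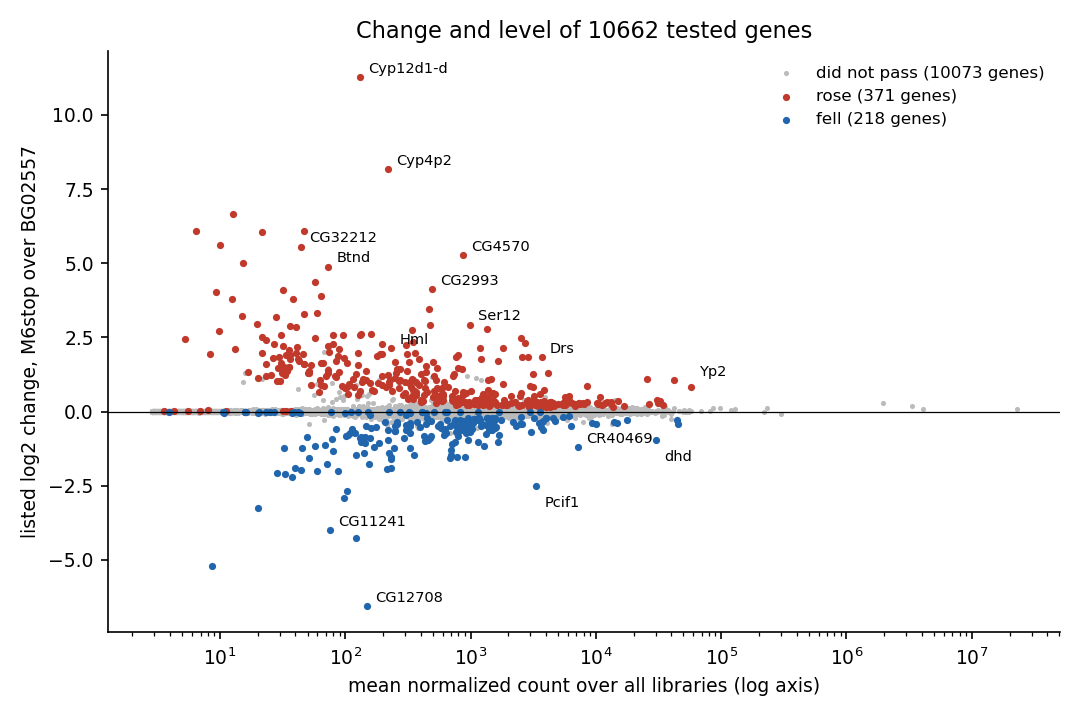
Each point is a tested gene, with its mean normalized count over all libraries on a log axis and the listed log2 change of M6stop over BG02557. Red points are the 371 genes that rose and blue points the 218 that fell; the largest changes lie at low to moderate levels, and Pcif1 stands below genes of a similar level.

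Protein-coding genes made up most calls, 361 rises and 210 falls among 9925 tested. Of 448 noncoding RNA genes, by the table's own classes, 9 rose and 5 fell (3.13%). Of 176 small nucleolar RNA genes only snoRNA:Psi28S-3186 was called, with a change of -1.89 (DESeq2 adjusted p = 6.5e-05) per the authors' deposited table. By chromosome the share called ran from 4.55% on 2L and 5.16% on both 2R and X to 5.97% on 3R and 6.31% on 3L. The small chromosome 4 had 6 rises and 4 falls among 90 tested genes.

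Pcif1 itself (CG11399, FBgn0037021, 3L:20780350-20786197, minus strand, BDGP6) checks the label. At a mean of 3326 normalized counts it fell by 2.51 on the log2 scale per the authors' deposited table, to 17.5% of the control level, with a DESeq2 adjusted p listed as 0. In F9ΔNLS its value was 0.02 (DESeq2 adjusted p = 0.83) per the authors' deposited table. White (w), the eye colour gene that is mutant in w1118, had a value of -0.07 (DESeq2 adjusted p = 0.16) per the authors' deposited table, and in F9ΔNLS -0.80 (DESeq2 adjusted p = 0.030). It lies within the span of kirre, on the other strand.

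Genes near Pcif1 moved both ways. Of 361 tested genes whose start lies within 2 Mb of that of Pcif1, 21 rose and 19 fell, a share of 11.1%, with Pcif1 left out. Farther away on 3L the share was 5.17% of 1663 genes, and on the other chromosomes 5.36% of 8552. In F9ΔNLS, where 23.4% of all tested genes were called, the shares were 28.5%, 23.8% and 23.1% in the same order. The share was 9.17% within 1 Mb and 13.99% from 1 to 2 Mb. Other regions, with fewer genes, had shares as high: 11.1% of the 90 genes on chromosome 4, and 13.8% of 94 genes between 10 and 11 Mb on 3R. Between 22 and 23 Mb on 3L, a stretch partly within 2 Mb of Pcif1, 17.2% of 58 genes were called. The median share was 5.06% over the 121 stretches of 1 Mb that held at least 20 tested genes. No test was made of these shares, and the limits in Mb were chosen with results of these data known. The genes next to Pcif1 gave a single call: of 5 tested neighbours on either side, CG11396 was called, with -0.38 (DESeq2 adjusted p = 0.0028) per the authors' deposited table. CG11396 is the first tested gene beyond the upstream end of Pcif1, and its F9ΔNLS value was -0.50 (DESeq2 adjusted p = 3.4e-05) per the authors' deposited table. Pex14, which encodes a peroxisomal import protein and lies beyond the other end, had 0.09 (DESeq2 adjusted p = 0.51) per the authors' deposited table. Farther out, CG42833 at 0.58 Mb rose by 6.08 (DESeq2 adjusted p = 2.1e-08) and nkd, a Wnt pathway inhibitor gene at 1.78 Mb, by 0.95 (DESeq2 adjusted p = 2.4e-05) per the authors' deposited table. CG11241 was at -4.01 (DESeq2 adjusted p = 3.5e-19) and the noncoding CR43309 at -2.003 (DESeq2 adjusted p = 4.4e-14) per the authors' deposited table. In F9ΔNLS the values were 5.29 for CG42833, 0.22 for nkd, -3.72 for CG11241 and -1.77 for CR43309 per the authors' deposited table.

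**Figure D2:**
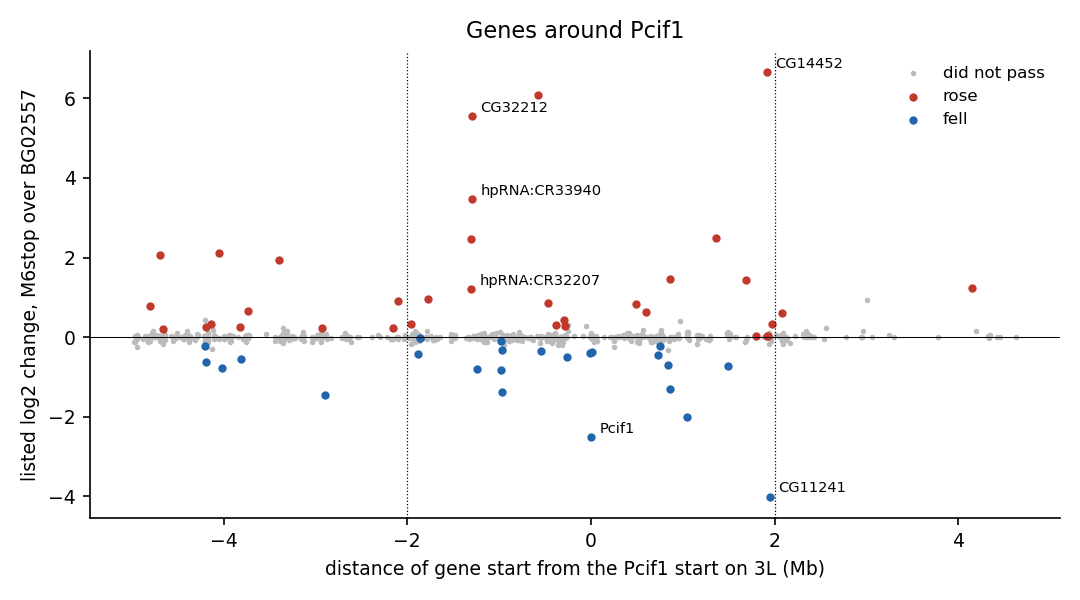
Listed log2 change of M6stop over BG02557 for tested genes whose start lies within 5 Mb of that of Pcif1 on 3L, against the distance between starts in Mb. Red points rose, blue points fell and grey points did not pass; dotted lines mark 2 Mb on each side, within which 40 of 361 genes other than Pcif1 were called.

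A compact set of rises was a block of 4 neighbouring genes about 1.3 Mb from Pcif1, on 3L:19472491-19488439, which holds a pair of hairpin RNA genes. Hairpin RNAs are inverted-repeat transcripts that Dicer-2 cuts into small interfering RNAs, which the Argonaute protein AGO2 carries. The gene hpRNA:CR33940 (minus strand) rose by 3.46 (DESeq2 adjusted p = 6.7e-53) at a mean of 464 normalized counts per the authors' deposited table. Its neighbour hpRNA:CR32207 rose by 1.20 (DESeq2 adjusted p = 1.1e-17) at a mean of 728 per the authors' deposited table. CG32212, which overlaps hpRNA:CR33940 on the other strand, rose by 5.56 (DESeq2 adjusted p = 4.9e-08), and CG12519 rose by 2.46 (DESeq2 adjusted p = 0.039) at a mean of only 5.30, per the authors' deposited table. In F9ΔNLS the authors' deposited table lists 0.51 for hpRNA:CR33940 (DESeq2 adjusted p = 0.022), -0.77 for hpRNA:CR32207 (DESeq2 adjusted p = 2.2e-07) and 5.96 for CG32212 (DESeq2 adjusted p = 2.2e-09). Another hairpin gene, hpRNA:CR18854, rose by 0.29 (DESeq2 adjusted p = 0.036) per the authors' deposited table. In total 3 of the 4 tested hairpin RNA genes rose, where 3.48% of all tested genes did. AGO2 fell by 0.16 (DESeq2 adjusted p = 0.024) per the authors' deposited table; it was named after its value was seen.

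Called genes elsewhere also lay side by side in places. Of 585 called genes with a position, 105 lay in 49 runs of neighbours, 44 of them pairs. Tested genes formed 10566 adjacent pairs, of which 56 were both called, and 39 of these moved in the same direction. With 5.52% of tested genes called and 63.0% of calls upward, some such pairs arise without clustering, many in the same direction. Clustering was not tested. The longest runs, of 4 genes each, were the hairpin block and the Ugt86D block described below. The run of CG4267, Ser12 and CG17239 on 2L:2242378-2252341 held CG4267, at -1.46, beside rises of 2.93 in each of the protease genes Ser12 and CG17239 per the authors' deposited table. On X:6349016-6363310 the complex I gene ND-B16.6 (0.20), the citrate synthase gene kdn (0.40) and swaPsi (1.41) rose side by side per the authors' deposited table. Yolk protein genes Yp1 (1.05) and Yp2 (0.83) rose with the antisense gene CR45601 (1.35) between 10050951 and 10055498 on X per the authors' deposited table. CR45601 lies wholly within Yp1 on the other strand, at a mean of 51.3 normalized counts beside 42172 for Yp1. Its reads are uncertain for that reason and may be those of Yp1.

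Nearly all citric acid cycle genes had listed values above 0, and 45.8% of them rose, against 3.48% of all tested genes. This cycle oxidizes acetyl groups in the mitochondrial matrix and feeds electrons to the respiratory chain. Of 24 tested genes 11 rose and 0 fell, and 23 had a value above 0, with a list median of 0.18 against -0.00070 over all tested genes on the log2 scale. The authors' deposited table gives rises of 0.48 for Idh, an isocitrate dehydrogenase that makes NADPH (DESeq2 adjusted p = 1.2e-07), and 0.40 for kdn (DESeq2 adjusted p = 0.0037). Idh3a, a subunit of the NAD-linked isocitrate dehydrogenase that the table calls l(1)G0156, rose by 0.31 (DESeq2 adjusted p = 6.3e-06), and the aconitase gene Acon rose by 0.30 (DESeq2 adjusted p = 0.0011) per the authors' deposited table. SdhA, the flavoprotein of succinate dehydrogenase, rose by 0.25 (DESeq2 adjusted p = 6.5e-04), and Mdh2, the mitochondrial malate dehydrogenase, by 0.24 (DESeq2 adjusted p = 0.0035) per the authors' deposited table. The 13 members that did not pass ran from -0.003 for the phosphatase gene Pdp to 0.22 for SdhC per the authors' deposited table. In F9ΔNLS, Idh was listed at -0.055 (DESeq2 adjusted p = 0.65) per the authors' deposited table, beside 0.42 for kdn and 0.40 for Idh3a.

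Of 76 tested nuclear genes of the respiratory chain 25 rose, or 32.9% against 3.48% of all tested genes. Of 12 tested nuclear genes of complex V, the ATP synthase, 10 rose, with a median log2 change of 0.25 and a range from 0.09 to 0.34. Complex I, which takes electrons from NADH, had 6 rises among 35 tested genes (median 0.13), complex II 1 among 4 (median 0.21), complex III 3 among 9 (median 0.17) and complex IV, cytochrome c oxidase, 5 among 15 (median 0.20). In the authors' deposited table ATPsynD rose by 0.32 (DESeq2 adjusted p = 7.3e-05), blw, the alpha subunit, by 0.27 (DESeq2 adjusted p = 0.0032) and COX6B by 0.39 (DESeq2 adjusted p = 6.1e-05). None of the tested nuclear genes of complexes I to V fell, and 71 of 76 on the joint list, which also holds cytochrome c, had a value above 0. Complex II is succinate dehydrogenase, and its genes SdhA and SdhC are counted in the citric acid cycle list too.

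Mitochondrial carriers rose in part, and mitochondrial ribosomes hardly. Of 34 tested import and carrier genes 4 rose and 0 fell, or 11.8% against 3.48% of all tested genes. They were porin, the outer membrane channel (0.16), the chaperonin gene Hsp60A (0.19), the ADP/ATP carrier gene sesB (0.21) and the phosphate carrier gene Mpcp2 (0.25) per the authors' deposited table. Of 73 mitochondrial ribosomal protein genes mRpL1 alone rose, by 0.21 (DESeq2 adjusted p = 0.029) per the authors' deposited table, with a list median of 0.02. All 13 protein-coding genes of the mitochondrial genome had a value above 0 (median 0.12), and mt:ND5 (0.28) and mt:ND1 (0.39) passed per the authors' deposited table.

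Other metabolic lists held single rises. Of 19 glycolysis and glucose genes 3 rose, or 15.8% against 3.48% of all tested genes. They were fbp, a gluconeogenic phosphatase gene (0.60, DESeq2 adjusted p = 2.3e-06), the aldolase gene Ald (0.27) and Glut1, a glucose transporter gene (0.24), per the authors' deposited table. Of 34 amino acid and one-carbon genes 4 rose (11.8%) and 0 fell, among them Gdh, glutamate dehydrogenase (0.29), Got2, an aspartate aminotransferase (0.29), and Odc1, an ornithine decarboxylase (1.90), per the authors' deposited table. The last was Gs2, glutamine synthetase (0.72), which also stands among the glial markers, per the authors' deposited table.

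Lipid genes split. Of 38 genes of fatty acid synthesis and storage 4 rose and 2 fell, 15.8% against the 5.52% of all tested genes that were called. AcCoAS, which makes acetyl-CoA from acetate, rose by 0.83 (DESeq2 adjusted p = 8.7e-10) per the authors' deposited table and lies 0.49 Mb from Pcif1. ACC, the first committed enzyme of fatty acid synthesis (0.26), and the elongase genes Baldspot (0.34) and bond (0.58) rose too per the authors' deposited table. Fatp3, a fatty acid transport gene listed as CG3394, fell by 1.52 (DESeq2 adjusted p = 1.0e-32), and S1P, a protease of sterol-response signalling, by 0.71 (DESeq2 adjusted p = 1.8e-06) per the authors' deposited table. Of 28 fatty acid oxidation genes Acox57D-d (0.32) and the catalase gene Cat (0.33) rose and CG3902 fell by 0.43 per the authors' deposited table.

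Genes of the vacuolar proton pump were grouped after their values were seen, so their count is a description. This pump acidifies organelles and drives ion transport in tubules. Of 21 tested genes 9 rose and 0 fell, or 42.9% against 3.48% of all tested genes. The list median was 0.24 on the log2 scale, while 13 of the 34 genes listed were under 10 normalized counts. Vha100-2 (0.29, DESeq2 adjusted p = 5.5e-07), Vha55 (0.34, DESeq2 adjusted p = 1.0e-04) and Vha16-1 (0.40, DESeq2 adjusted p = 0.019) were among the 9 that rose per the authors' deposited table. Their means were 10205, 15012 and 30619 normalized counts, which places Vha55 and Vha16-1 among the 10 most abundant genes that rose, per the authors' deposited table.

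Detoxification genes moved both ways, with the largest single rises of the comparison. Cytochrome P450s oxidize foreign and internal compounds, glutathione S-transferases and UDP-glycosyltransferases couple the products to glutathione or sugars. Of 76 tested P450 genes 9 rose and 4 fell, 17.1% against 5.52% of all genes. Beyond Cyp12d1-d (11.27, DESeq2 adjusted p = 6.1e-05) and Cyp4p2 (8.17, DESeq2 adjusted p = 1.0e-21), Cyp49a1 (2.17), Cyp301a1 (1.83) and the mitochondrial Cyp12e1 (1.48) rose at means under 50 normalized counts per the authors' deposited table. Cyp12d1-p, the near-identical copy of Cyp12d1-d, did not pass (DESeq2 adjusted p = 0.89) per the authors' deposited table, at a mean of 614 beside 130 for Cyp12d1-d, so the split of their reads is uncertain. Cyp305a1 fell by 1.39 (DESeq2 adjusted p = 3.0e-10) and lies within 1 Mb of Pcif1, Cyp317a1 fell by 0.85, and Cyp18a1, which inactivates ecdysone, by 0.76 per the authors' deposited table.

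The UDP-glycosyltransferase family shows opposite changes among neighbours. Of 32 tested genes 3 rose and 4 fell, 21.9% against the 5.52% of all tested genes that were called. Within 33.1 kb on 3R:11126597-11159744, Ugt86Dc fell by 4.25 (DESeq2 adjusted p = 4.8e-12) with Ugt86Di at -1.56 (DESeq2 adjusted p = 3.1e-04), while Ugt86Da rose by 0.60 (DESeq2 adjusted p = 5.2e-10) per the authors' deposited table. Ugt86Dd in the same run was called downward at a listed value of -0.05 (DESeq2 adjusted p = 0.036) per the authors' deposited table. In F9ΔNLS, Ugt86Dc was at -2.55 and Ugt86Da at 0.72, but Ugt86Di at -0.03 (DESeq2 adjusted p = 0.89), per the authors' deposited table. These genes are related copies, so reads may be split between them.

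Of 33 glutathione S-transferase genes 3 rose and 4 fell, 21.2% against the 5.52% of all tested genes that were called. GstE1 (1.87) and its neighbour GstE10 (0.54) rose and GstE8 (-0.85) and GstD3 (-0.67) fell per the authors' deposited table. Of 15 carboxylesterase genes 2 rose and 2 fell, a share of 26.7%. All of these were alpha-esterases: alpha-Est10 (0.37) and alpha-Est3 (0.35) rose, and alpha-Est1 (-0.33) and alpha-Est7 (-0.11) fell, per the authors' deposited table. Of 39 ABC transporter genes CG17646 alone rose, by 0.69 (DESeq2 adjusted p = 3.8e-04) per the authors' deposited table.

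Metal, oxidant and heat stress genes gave a handful of calls each. Of 33 metal handling genes 3 rose and 1 fell, 12.1% against the 5.52% of all tested genes that were called. The metallothionein genes MtnA (1.26, DESeq2 adjusted p = 7.4e-04) and MtnC (3.32, DESeq2 adjusted p = 0.019) rose, while Atox1, the copper chaperone gene, fell by 1.31 (DESeq2 adjusted p = 2.7e-11) per the authors' deposited table. Atox1 lies 0.86 Mb from Pcif1, and its F9ΔNLS value was -0.06 (DESeq2 adjusted p = 0.76) per the authors' deposited table. Of 30 oxidative stress genes 4 rose and 1 fell, a share of 16.7%. Cat (0.33) and the peroxidase genes PHGPx (0.24) and Prx2540-1 (0.74) rose with GstE1 per the authors' deposited table. The fall was that of dhd, the thioredoxin of the oocyte, at -0.97 per the authors' deposited table. The regulator genes of this response, cnc (DESeq2 adjusted p = 0.78) and Keap1 (DESeq2 adjusted p = 0.67), did not pass per the authors' deposited table. Of 27 heat shock genes 5 rose and 0 fell, or 18.5% against 3.48% of all tested genes. They were Gp93 (0.28, DESeq2 adjusted p = 2.0e-05), Hsp60A, l(2)efl (0.95), Hsp70Ab (1.20) and Hsp70Bc (4.09, at a mean of 32.0) per the authors' deposited table. Hsp70 copies are nearly identical, and Hsp70Bb, at a mean of 76.5, did not pass (DESeq2 adjusted p = 0.99) per the authors' deposited table, so the assignment of reads to copies is uncertain.

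Immune genes gave a few calls in both directions. Of 23 tested antimicrobial peptide genes 3 rose and 0 fell, and 19 of the 33 listed had means under 10. Drs, the antifungal peptide drosomycin, rose by 1.83 (DESeq2 adjusted p = 2.4e-05) at a mean of 3697 per the authors' deposited table. The neighbouring attacin genes AttA (1.63) and AttB (1.59) rose at means of 30.5 and 46.8 per the authors' deposited table. Of 21 Imd pathway genes PGRP-SB1 alone rose (2.11), and of 13 JAK/STAT and Turandot genes DESeq2 called 0, per the authors' deposited table. The Imd share of 4.76% lies near the 3.48% of all tested genes that rose. Of 32 Toll and melanization genes 3 rose and 2 fell, 15.6% against the 5.52% of all tested genes that were called. Hayan, a protease that starts melanization (-2.93), and spirit, a protease of the Toll cascade (-1.24), fell, whereas GNBP1, a recognition protein gene (0.92), Spn77Ba (0.86) and Sp7 (0.37) rose per the authors' deposited table. Of 15 serpin genes, which encode protease inhibitors, Spn42Da (0.66, DESeq2 adjusted p = 2.0e-17), Spn43Ab (1.28) and Spn77Ba rose per the authors' deposited table, a share of 20%.

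Some genes fell on a list built around cell-surface proteins of the immunoglobulin superfamily. Such proteins mediate recognition between cells, and kirre and rst are paralogs that act together in muscle fusion and eye patterning. Of 35 tested genes 6 fell and 0 rose, 17.1% against the 2.04% of all tested genes that fell, while 13 had values above 0 and the list median was -0.0051 on the log2 scale. In the authors' deposited table kirre fell by 1.91 (DESeq2 adjusted p = 2.6e-06), rst by 1.53 (DESeq2 adjusted p = 1.7e-08) and Nrt, neurotactin, by 0.78 (DESeq2 adjusted p = 8.6e-06). Neurotactin is a surface protein without immunoglobulin domains, so the counts of this list include a gene from outside the superfamily. The rst gene, on X:2950399-2973834, lies wholly inside the span of kirre on the other strand, and kirre overlaps 13 annotated genes on its own strand and 15 on the other, so the reads of both are uncertain. The receptor-like gene otk2 (-1.25), kek1, a target and inhibitor of the EGF receptor (-0.70), and Lac, a septate junction gene (-0.36), completed the falls per the authors' deposited table. In F9ΔNLS kek1 had a value of 0.02 (DESeq2 adjusted p = 0.94), whereas rst had -1.02 and Nrt -1.46, per the authors' deposited table. Of 12 dpr and DIP genes dpr6 fell (-2.69), and it shares its span with 12 other annotated genes, so its reads are uncertain.

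**Figure D3:**
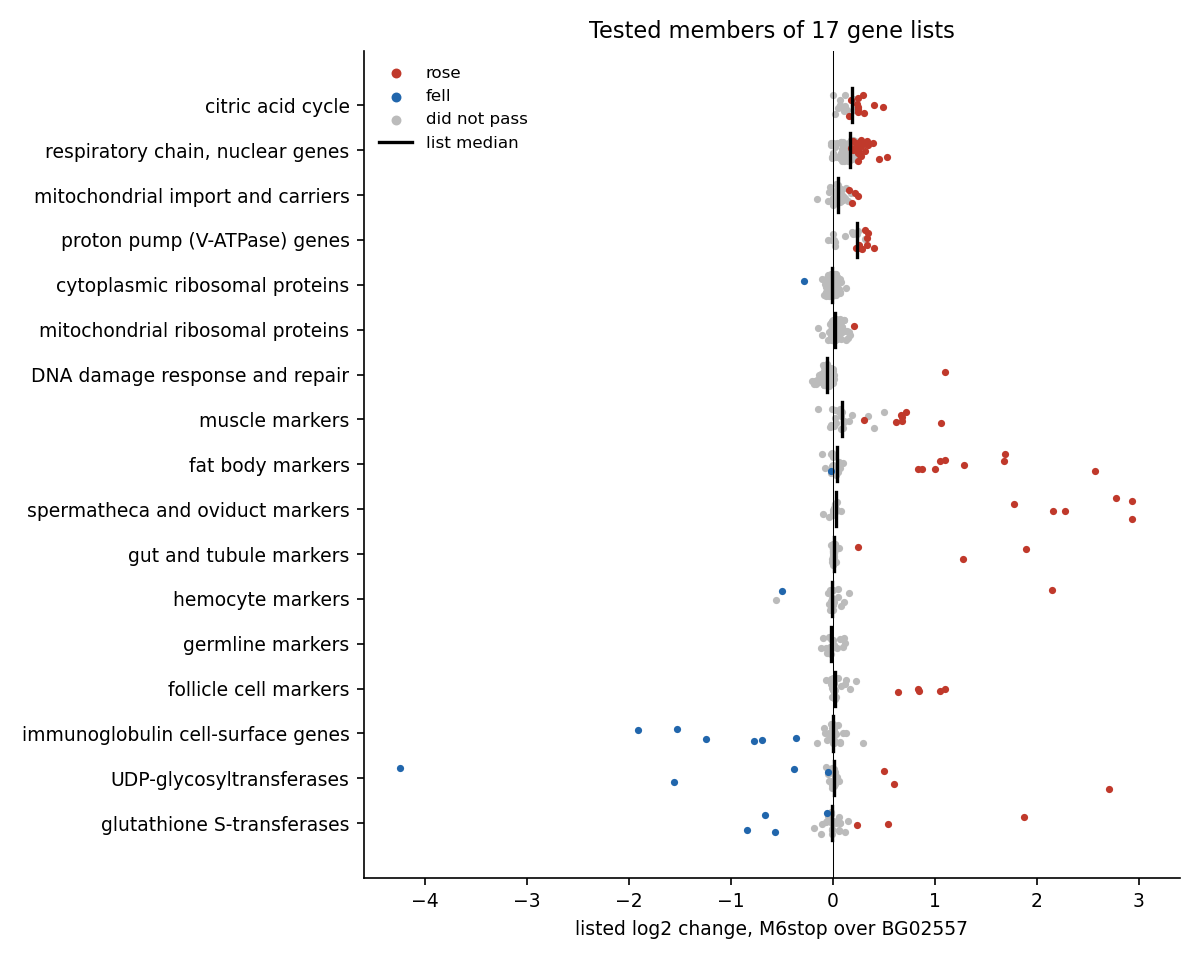
Listed log2 change of M6stop over BG02557 for the tested members of 17 lists, a point per gene with random vertical scatter. Red points rose, blue points fell, grey points did not pass and black bars are list medians, which lie at 0.18 for the citric acid cycle and 0.24 for the proton pump and close to 0 for most other lists.

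Further large changes lay outside these lists. The largest listed fall was that of CG12708, at -6.56 (DESeq2 adjusted p = 2.7e-35) in M6stop and -5.83 in F9ΔNLS, at a mean of 149.6 normalized counts per the authors' deposited table. GLaz, a lipocalin gene, fell by 1.52 (DESeq2 adjusted p = 9.9e-22), and its relative NLaz, named after its value was seen, by 0.97 (DESeq2 adjusted p = 0.025), per the authors' deposited table. Cht2, a chitinase gene (-1.47, DESeq2 adjusted p = 7.7e-23), and Idgf2, a chitinase-like growth factor gene (-1.56, DESeq2 adjusted p = 3.4e-08), fell per the authors' deposited table, while Idgf4, likewise named later, rose by 0.31 (DESeq2 adjusted p = 0.0068). Ada, adenosine deaminase, fell by 1.78 (DESeq2 adjusted p = 5.3e-10) per the authors' deposited table. Among the 20 largest rises were Lgr1, a glycoprotein hormone receptor gene (2.58), and olf413, which lies 1.36 Mb from Pcif1 (2.49), per the authors' deposited table. CG2641 (2.62), CG2993 (4.13) and CG4570 (5.28) rose as well per the authors' deposited table; CG4570 had 39.0 times its control level at a mean of 866 normalized counts.

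For some of the 40 largest changes the listed value in F9ΔNLS was small. For MtnC (0.04), CG17999 (0.09), CG1909 (-0.40), CG33978 (-0.13) and Ugt86Di (-0.03), besides Pcif1, the F9ΔNLS value did not pass per the authors' deposited table. The DESeq2 adjusted p-values in F9ΔNLS were 0.41, 0.053, 0.091, 0.48 and 0.89 in this order. In M6stop the same genes had 3.32, 2.58, -2.02, -1.59 and -1.56 per the authors' deposited table. Cyp12d1-d (0.04, DESeq2 adjusted p = 0.046), Cyp4p2 (0.32, 0.027), Btnd (0.19, 0.048) and CG1143 (0.16, 0.036) passed as rises in F9ΔNLS. For these 4 genes the small F9ΔNLS value does not give the size of a change. Nor do the small values of the genes that did not pass, some of which were close to the threshold. The noncoding CR40469, at a mean of 7167 the most abundant noncoding gene that fell, had -1.19 in M6stop (DESeq2 adjusted p = 8.5e-35) and -0.05 in F9ΔNLS (DESeq2 adjusted p = 0.73) per the authors' deposited table. It lies at the tip of the X chromosome, X:122493-122706. Both comparisons use the same control libraries, and no test was made between the edited lines.

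**Figure D4:**
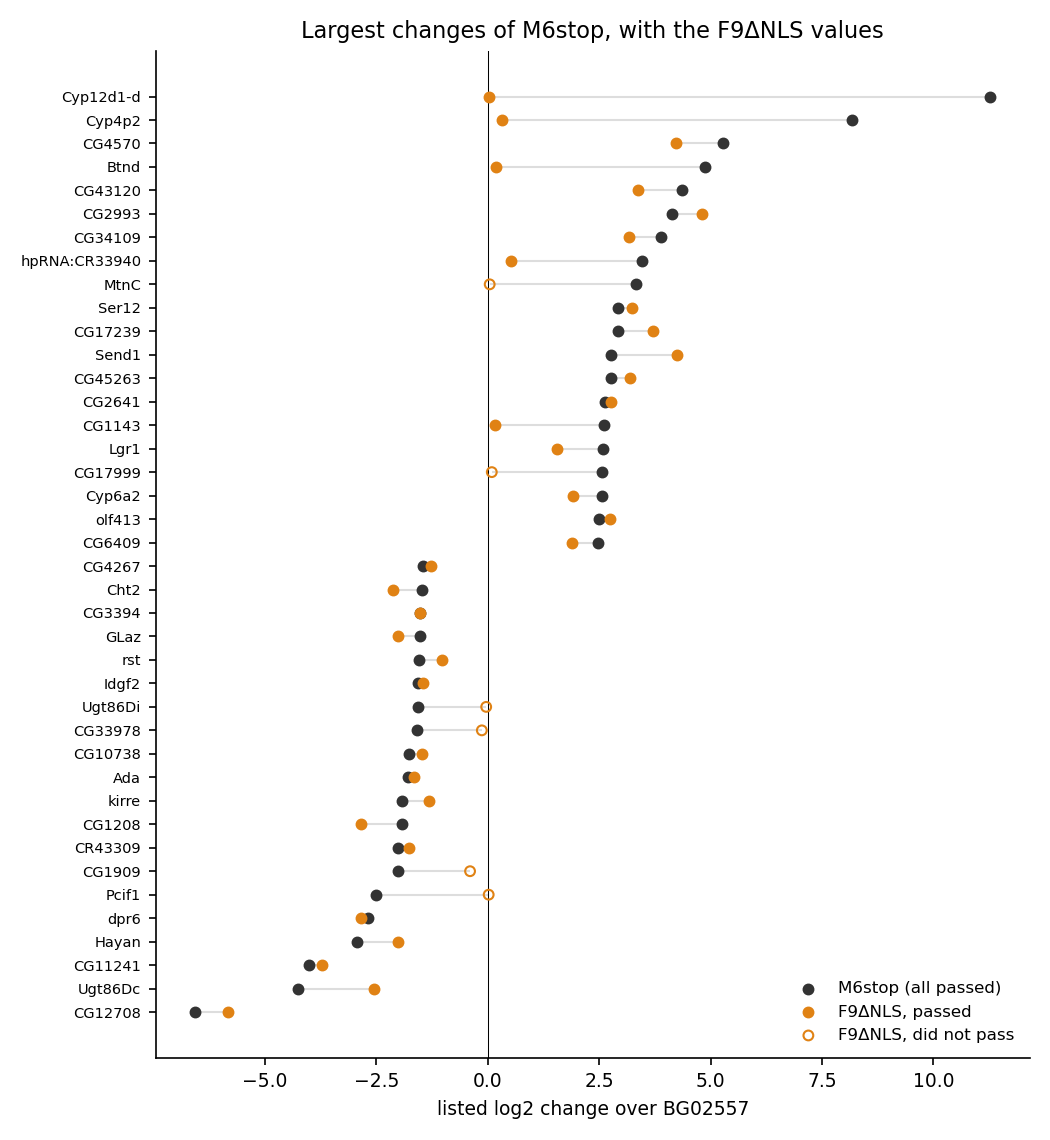
Listed log2 change over BG02557 of the 20 largest rises and 20 largest falls in M6stop, taken from genes at 50 or more normalized counts. Black points are M6stop; orange points are F9ΔNLS, filled where its DESeq2 adjusted p was under 0.05. Cyp12d1-d and Cyp4p2 lie at 11.27 and 8.17 in M6stop and at 0.04 and 0.32 in F9ΔNLS, where both passed as rises, so the small F9ΔNLS values do not give a size.

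Genes that mark the ovary were abundant, and no germline marker on the list was called, where 5.52% of all tested genes were. A list of 19 genes is too short for a count of 0 to stand apart from that share. Genes of the germline outside the list did fall, dhd and RpS5b among them. Of 19 germline markers DESeq2 called 0, with values from -0.12 for spn-E to 0.11 for tud; osk, the posterior determinant, had a mean of 35691 normalized counts and a value of 0.00 per the authors' deposited table. The unadjusted p-values are not in the deposited table. Of 27 follicle cell markers 5 rose and 0 fell, or 18.5% against 3.48% of all tested genes. They were the yolk protein genes Yp1, Yp2 and Yp3 (1.10), the vitelline membrane gene Vm26Ab (0.84) and psd (0.63) per the authors' deposited table. Testis genes were mostly silent, with 45 of 59 under 10 normalized counts; vis alone rose (2.26, at a mean of 26.9) per the authors' deposited table. All 12 Y-linked genes were under 10, with a summed mean of 2.34 normalized counts.

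Markers of other tissues were present at high levels, and some rose. Digestive genes were the most abundant of these: 41 gut and tubule markers had a summed mean of 234304 normalized counts, against 123563 for the 19 germline markers. Jon65Aiv, a gut protease gene, had a mean of 23559 and a listed change of 0.01 (DESeq2 adjusted p = 0.72) per the authors' deposited table. None of the 27 Jonah and trypsin genes passed by DESeq2, and their listed changes had a median of 0.0044. Of these genes 23 had a value above 0, as did 32 of the 41 markers, which share many of them. Of the 41 markers 3 rose, or 7.32% against 3.48% of all tested genes, and 0 did at a DESeq2 adjusted p under 0.01. These were Uro, urate oxidase (1.89, DESeq2 adjusted p = 0.033), and the potassium channel genes Irk2 (1.27) and Irk1 (0.24) per the authors' deposited table. Other transport genes that rose were named after their values were seen: the cotransporter gene NKCC (0.99), the neurotransmitter-transporter-like ine (1.03), the exchanger gene Nha2 (1.06) and the vitamin transporter gene Smvt (1.71) per the authors' deposited table. The part of tubule or gut RNA in these rises, and in those of the proton pump, P450 and metallothionein genes, was not tested.

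Some muscle, fat body and spermathecal markers rose as well, where 3.48% of all tested genes did. Of 30 muscle markers 7 rose and 0 fell, 25 had a value above 0, and the list median was 0.09 on the log2 scale. They included wupA, a troponin I gene (0.61), Tm2, a tropomyosin gene (0.68), tn (0.68) and the transcription factor gene Mef2 (0.30) per the authors' deposited table. The myosin gene Mhc had 0.50 (DESeq2 adjusted p = 0.075) per the authors' deposited table. Muscle is rich in mitochondria, and the part of muscle RNA in the rises of respiratory and citric acid cycle genes was not tested. Of 26 fat body markers 9 rose and 1, tobi, was called downward at a listed value of -0.02; the yolk protein genes stand in this list and in that of follicle cells. Besides these the lipoprotein gene Apoltp (1.67), Miox (CG6910, 1.69) and Lst, a peptide hormone gene (0.88), rose per the authors' deposited table. Lst is known from endocrine cells, so its place on the fat body list is doubtful. Of 18 spermatheca and oviduct markers 6 rose and 0 fell, while the list median was 0.02. The rises ran from 1.77 for CG9897 to 2.93 for Ser12 per the authors' deposited table. Ser12, CG17239, Send1 (2.77) and CG31681 (2.16) lie close together on 2L:2250431-2286873, so their rises may not be separate signs of a tissue. Of 22 hemocyte markers Hml, hemolectin, rose by 2.14 (DESeq2 adjusted p = 7.4e-06), while ush, a blood cell regulator, fell by 0.50 and eater and NimC1 had -0.02 and -0.005 per the authors' deposited table. Of 24 neuron and glia markers Gs2 alone rose. How far each tissue's RNA differed between single libraries was not analysed here.

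Calls in the machinery closest to Pcif1 are set here against the 5.52% of all tested genes that were called. Of 35 tested genes of the cap and the polymerase II tail, aft, a cap methyltransferase gene, fell by 0.21 (DESeq2 adjusted p = 0.047) per the authors' deposited table. No other was called, a share of 2.86%. DESeq2 called 0 of 12 genes for RNA adenosine methylation (list median 0.01) and 0 of 26 nuclear import genes (median -0.02). Lists this short cannot set so few calls apart from the share over all genes. Of 88 cytoplasmic ribosomal protein genes RpS5b alone was called, a share of 1.14%. This germline paralog fell by 0.28 (DESeq2 adjusted p = 5.6e-04) per the authors' deposited table.

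Of the DNA repair genes most had listed values below 0, none of which passed. Of 44 tested repair and checkpoint genes 40 had a value below 0, against 50.9% of all tested genes, with a median of -0.06 on the log2 scale. The lowest were WRNexo, an exonuclease (-0.21), and tefu, the ATM kinase (-0.19), with DESeq2 adjusted p-values of 0.14 and 0.16 per the authors' deposited table. The list's only call was upward, the photolyase gene phr6-4 (1.10, DESeq2 adjusted p = 5.9e-04), per the authors' deposited table. Of 40 cell death and autophagy genes Atg17 rose (0.27) and the cathepsin gene Cp1 fell (-0.37), and of 13 clock genes cyc fell (-0.31), per the authors' deposited table. The cyc gene lies 0.97 Mb from Pcif1 and next to Cyp305a1, which fell too.

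Histone and noncoding RNA genes gave calls in both directions. Of 23 tested replication-dependent histone genes, which package new DNA, 5 fell and 1 was called upward, and 18 had a value below 0. The share called was 26.1%, against 5.52% of all tested genes. His3:CG31613 was at -0.41 (DESeq2 adjusted p = 0.021) at a mean of 45285 normalized counts, and His2B:CG33868 at -0.50 (DESeq2 adjusted p = 0.0012), per the authors' deposited table. Histone genes are repeated in near-identical copies, so reads may be split between them. Of 434 long noncoding RNA genes 6 rose and 5 fell, 2.53% against 5.52% of all tested genes, with CR45631 at -1.17 and pncr014:3L at 1.95 per the authors' deposited table. Of 23 small nuclear RNA genes snRNA:U1:95Cc fell by 0.56 (DESeq2 adjusted p = 0.048) per the authors' deposited table. Some families are mostly silent here and had few tested genes. Of 15 tested odorant-binding protein genes Obp56d (2.20) and Obp99a (0.996) rose per the authors' deposited table, a share called of 13.3%. Among 20 cuticle protein genes Cpr62Ba (2.96) rose per the authors' deposited table, a share of 5%. Of 26 chemosensory receptor genes Ir85a rose (5.01, at a mean of 15.3) and Ir76a was called downward at -0.11 per the authors' deposited table. That share was 7.69%, where 5.52% of all tested genes were called. Of 23 sugar transport and digestion genes 17.4% were called. The trehalose transporter gene Tret1-1 (0.37) rose with Glut1, and tobi and Mal-B1 were called downward at -0.02 each, per the authors' deposited table.

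Stress and growth regulators were among the calls, named after their values were seen. Sesn, sestrin, an inhibitor of TOR signalling, fell by 0.78 (DESeq2 adjusted p = 1.2e-16), and PEK, the kinase of the unfolded protein response, by 0.69 (DESeq2 adjusted p = 3.0e-13) per the authors' deposited table. REPTOR, a transcription factor held back by TOR, fell by 0.20 (DESeq2 adjusted p = 0.022), while foxo (0.17, DESeq2 adjusted p = 0.029) and Myc (0.27, DESeq2 adjusted p = 0.0032) rose per the authors' deposited table. In F9ΔNLS Sesn had the same listed value to 2 decimals, -0.78, whereas PEK was at -0.12 (DESeq2 adjusted p = 0.28), per the authors' deposited table.

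A last group of calls has no readable size. Of the 218 falls 36 had a listed change under 0.1 in size, at means from 3.93 to 3591 normalized counts, and of the 371 rises 9 did. Digestive and secreted proteins were among these falls: the mucin gene Muc68D (DESeq2 adjusted p = 1.4e-08) at a mean of 1155, the lysozyme gene LysP (DESeq2 adjusted p = 2.6e-05) and the chitinase gene Cht8 (DESeq2 adjusted p = 0.016) had -0.03, -0.02 and -0.03 per the authors' deposited table. Such values do not show that the changes were small.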

How the data were processed

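Libraries were paired-end and made from ovary RNA depleted of ribosomal RNA, per the labels' protocols. The submitters' processing notes list build BDGP6, DESeq2 1.25.10, DESeq, Salmon 1.3.0 and R 3.6.3, giving no role for any of them. The mean normalized count is a signal value that the authors deposited (counts divided by size factors, averaged over libraries, by DESeq2's use of the name). The log2 changes and the adjusted p-values were deposited by the authors, per the file headers; base 2 was assumed, and shrinkage and the adjustment method are not stated. The table's 9 columns for single libraries match no sample label and were not used, so the planned edgeR and limma fits, replicate checks and replicate block were not run.

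Genes were counted by direction at an adjusted p under 0.05 and placed by Ensembl release 115 (10577 of 10662 tested genes). The counting steps were tested on simulated data. Members and the 52 lists were chosen with earlier results of these data known; 35 of 1049 list entries were not found. Named genes were Pcif1 and w, the 20 largest changes each way at a mean of at least 50, the 10 most abundant calls each way, up to 4 calls per list and direction with the smallest adjusted p, runs of 3 or more neighbouring calls, and 5 neighbours of Pcif1 on each side. Further members and genes were named after their values were seen. Python 3.11.15, pandas 2.3.3 and matplotlib 3.10.9 were used.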

Additional observations from a re-analysis of the deposited data

How the results depend on the processing

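At an adjusted p under 0.01 in place of 0.05, 351 genes changed, 206 up and 145 down, and a listed log2 change of at least 1 left 206, of which 157 rose and 49 fell. The overall counts stayed within 1.5 times of those reported at a threshold of 0.1 (762 genes), at a mean of at least 50 normalized counts (498) and at a listed change of at least 0.1 (544). Among the counts of rises or falls by list, 35 moved by more than 1.5 times at 0.01 and 67 did not, and 11 moved each at 0.1 and at a mean of at least 50. A count of 0 at 0.05 could not move at 0.01 or at a mean of at least 50. Many of the counts that did not move there were 0, so they do not show stability. At 0.01 the rises numbered 7 in the citric acid cycle, 16 in the respiratory chain, 2 in each of the proton pump, muscle and follicle cell lists and 4 among P450 genes. At a mean of at least 50 they numbered 5 among P450 genes and 1 among antimicrobial peptides. The share called within 2 Mb of Pcif1 was 6.93% at 0.01, 12.7% at 0.1 and 11.9% at a mean of at least 50, beside 3.31%, 6.86% and 5.59% farther along 3L; these settings were chosen after seeing the data. No paired analysis was possible because the columns of single libraries carry no replicate number or line. For the same reason leaving out a library, another normalization and another low-count filter were not run, and the depth and spread of single libraries were not analysed here.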
